A study of Arabidopsis thaliana with 16 samples.

Results

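AT1G22900 and AT4G11210 are genes of the dirigent family of Arabidopsis thaliana, and 1 probe set per gene was measured in seedling roots. They are 2 of the 13286 loci that had a named probe set on the array (22810 probe sets in all). Both were selected on changes measured in these same arrays. AT1G22900 was chosen by its high values with the auxin indole-3-acetic acid (IAA), and AT4G11210 by its fall with ethylene in aux1 roots. Those changes, and the other comparisons that use the same arrays, are therefore given as descriptions without a test.

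Expression was measured on 16 arrays in 8 groups of 2. The ethylene experiment held aux1 roots in ethylene, aux1 roots in air, wild-type Col-0 (Col) roots in ethylene and Col roots in air. The auxin experiment held ein2 roots with IAA, ein2 roots with mock spray, Col roots with IAA and Col roots with mock spray. The aux1-7 allele impairs an auxin influx carrier, and the ein2-5 allele disables a central component of ethylene signalling. Growth lasted 3 days at 22 °C without light, and treatment lasted 4 h. Ethylene was given at 10 ppm in hydrocarbon-free air, against that air alone. IAA was sprayed at 1 µM in 0.01% ethanol, against 0.01% ethanol as mock. Whole roots were cut from the hypocotyl, so all root cell types were pooled. The series calls the 2 arrays of a group biological replicates.

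Dirigent proteins have no known oxidising activity of their own. An oxidase such as a laccase or a peroxidase makes radicals of monolignols, the building blocks of lignin, and a dirigent protein guides how a pair of these radicals joins, so that 1 mirror form of a lignan results. In Arabidopsis, DIR6 (AT4G23690) directs the formation of pinoresinol in this way. ESB1 (AT2G28670), a protein with a dirigent domain, is needed for ordered lignin in the Casparian strip, the barrier in the walls of the root endodermis. The biochemical roles of AT1G22900 and AT4G11210 are not named in the annotation used here.

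Values are GCRMA expression values on a log2 scale, so that a difference of 1 is a 2-fold change. Array medians lay between 5.874 and 6.004 and lower quartiles between 2.445 and 2.552. Replicate arrays correlated at 0.993 to 0.998. Precision is limited by the number of arrays. Of 15 root markers 2 had a named probe set: PYK10, a beta-glucosidase abundant in roots, lay between 13.60 and 14.27, and EXPA7, an expansin of root hair cells, between 7.43 and 10.21. None of the 10 markers of shoot and seed tissue had a named probe set, so a remainder of such tissue was not tested. As a check of the spray, GH3.3, which encodes an auxin-conjugating enzyme, rose with IAA by 5.31 ± 0.75 in ein2 and by 6.02 ± 0.75 in Col, and LBD29, a regulator of lateral root formation, by 4.58 ± 0.28 and 6.02 ± 0.28 (SE; limma adjusted p of 2.95e-07 to 0.00219). GH3.1 (4.23 ± 0.39 and 6.05 ± 0.39), WES1, also a GH3 gene (3.68 ± 0.17 and 3.71 ± 0.17), and LBD16 (1.57 ± 0.20 and 1.18 ± 0.20) rose as well in ein2 and Col (adjusted p of 2.32e-07 to 0.00478), but for LBD16 in Col the call was lost when replicate 1 of the mock or of the IAA arrays of Col was left out (0.0541 to 0.0582). LBD29 (AT3G58190) was also called lower with ethylene in Col (-1.02 ± 0.28, adjusted p = 0.0478), a call lost in 14 of 24 other settings, among them without any 1 of the 8 arrays of the auxin experiment, either Col air array or Col ethylene replicate 1. With mock spray, 2 of these 5 genes were called higher in ein2 than in Col and 0 lower, beside 5.35% and 5.74% of all features. They were LBD29 (1.56 ± 0.28, adjusted p = 0.00452) and GH3.1 (1.65 ± 0.39, 0.0182), whose call was lost without any 1 of the 4 mock arrays. With IAA neither was called (0.13 ± 0.28 and -0.17 ± 0.39).

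AT1G22900 was at the bottom of the scale in every root that had not received IAA. With IAA its values were 6.17 and 5.57 in ein2 roots and 6.46 and 6.91 in Col roots. With mock spray they were 1.97 and 2.04 in ein2 roots and 1.96 and 1.94 in Col roots. Both genotypes thus had high values in both IAA arrays, and no mock array came near them. The IAA arrays placed the gene above 51.2% and 47.4% of all probe sets in ein2, and above 53.9% and 57.7% in Col. With mock spray it stood above 6.29% and 7.98% of probe sets in ein2, and above 5.25% and 5.35% in Col. Over all 12 arrays without IAA the values spanned only 1.92 to 2.04, below the lower quartile of every array, a range in which GCRMA values mark background.

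The difference of the group means between IAA and mock was 3.86 ± 0.18 in ein2 and 4.73 ± 0.18 in Col (SE, n = 2 arrays per group). This SE rests on a spread pooled over all 8 groups. The IAA groups had an SD of 0.42 in ein2 and 0.32 in Col, and no group at background had more than 0.05. The SE therefore understates the spread of the IAA arrays. Because the mock values lay at background, the size of both changes is limited by that background. The share of the 13836 features tested that was called higher for IAA (limma, Benjamini-Hochberg adjusted p under 0.05) was 1.94% in ein2 and 4.2% in Col, and nothing is read from it for AT1G22900, which was chosen for this change. In bulk roots, more cells with the transcript and more transcript per cell cannot be told apart. The neighbouring gene AT1G22910 stood at -0.07 ± 0.15 in ein2 and 0.08 ± 0.15 in Col for IAA against mock (adjusted p of 0.922 and 0.829), and AT1G22890, on the other side, did not pass the filter.

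In these arrays AT1G22900 stood lower with IAA in ein2 than in Col. The mean was 5.87 in ein2 and 6.68 in Col, a difference of -0.82 ± 0.18, and the ein2 arrays both lay below the Col arrays. The SE values in this paragraph also pool all 8 groups and are too small for the spread of the IAA arrays. The gap between the lower Col array and the higher ein2 array was within the spread of the 2 ein2 arrays. With mock spray the means were 2.01 in ein2 and 1.95 in Col (0.06 ± 0.18), both at background. The IAA effect in ein2 minus that in Col was -0.87 ± 0.25, and it lay between -1.17 and -0.58 when 1 array was left out at a time. The 2 limits were reached without ein2 IAA replicate 1 and without ein2 IAA replicate 2, where the difference between genotypes with IAA was -1.11 and -0.52. All of these values come from the arrays for which the gene was chosen, and no test is given.

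In the ethylene experiment AT1G22900 stayed at background. Its values were 1.92 and 1.94 in aux1 with ethylene and 1.96 and 1.97 in aux1 with air. In Col they were 1.94 and 1.94 with ethylene and 1.95 and 1.96 with air. The group means differed by -0.03 between ethylene and air in aux1 and by -0.02 in Col. The gene passed the filter on low values, above 4 in at least 2 arrays, only through its 4 IAA arrays. Values at background can show neither an effect of ethylene or of aux1 nor its absence, so no test is given for these arrays.

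**Figure D1:**
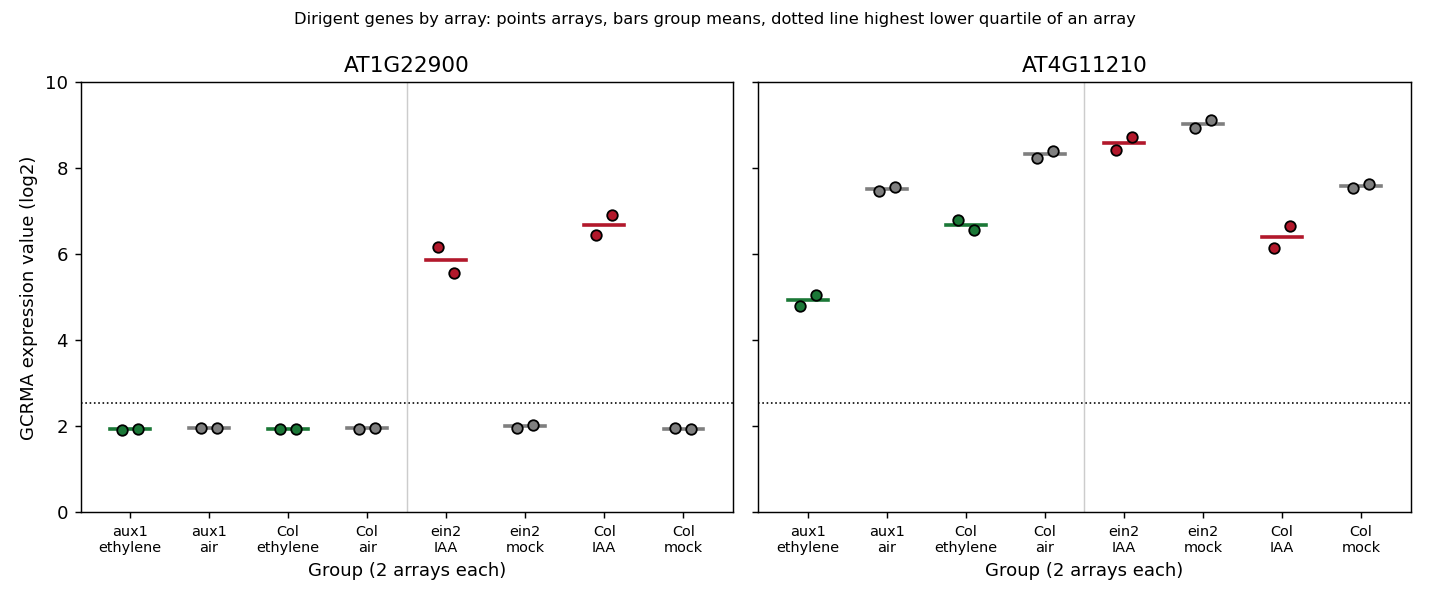
GCRMA expression value (log2, vertical axis) of AT1G22900 (left) and AT4G11210 (right) in each of the 16 arrays by group. Points are arrays, bars are group means, and the dotted line is the highest lower quartile of an array (2.552). AT1G22900 lies at 1.92 to 2.04 in 12 arrays and at 5.57 to 6.91 in the 4 IAA arrays. AT4G11210 is measured in all 16 arrays and lowest in aux1 with ethylene.

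AT4G11210 was measured above the lower quartile in every array, from 4.81 to 9.12. Its values were 4.81 and 5.06 in aux1 with ethylene, and 7.47 and 7.57 in aux1 with air. In Col they were 6.79 and 6.56 with ethylene, and 8.25 and 8.40 with air. Ethylene arrays lay below air arrays in both genotypes, and aux1 lay below Col in both gases. With IAA the values were 8.43 and 8.73 in ein2 and 6.15 and 6.67 in Col. With mock spray they were 8.93 and 9.12 in ein2 and 7.55 and 7.64 in Col. Every ein2 array lay above every Col array of the auxin experiment, and within each genotype the IAA arrays lay below the mock arrays.

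Ethylene lowered AT4G11210 in wild-type roots. The mean was 6.68 in Col with ethylene and 8.32 in Col with air, a fall by 1.64 ± 0.18 (3.13-fold, limma adjusted p = 0.000141). Of all features, 4.76% were called lower in this comparison, and only 102 of the 13836 tested had a larger fall. In aux1 the mean was 4.94 with ethylene and 7.52 with air. That change of -2.58 ± 0.18 (5.99-fold) is the one for which the gene was chosen. In that comparison 3.76% of features were called lower, and nothing is read from this share for AT4G11210. The ethylene effect in aux1 minus that in Col was -0.94 ± 0.25. aux1 minus Col was -1.74 ± 0.18 in ethylene and -0.80 ± 0.18 in air. These 3 differences use the aux1 arrays of the choice and are descriptions.

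IAA also lowered AT4G11210 in wild-type roots. The mean was 6.41 in Col with IAA and 7.60 in Col with mock spray, a fall by 1.18 ± 0.18 (2.27-fold, adjusted p = 0.00203), where 2.73% of features were called lower. The SD was 0.37 in Col with IAA and at most 0.22 in the other groups. An SE pooled over all 8 groups therefore understates the spread wherever the Col IAA arrays are used, and the p values rest on it. In ein2 the mean was 8.58 with IAA and 9.03 with mock spray. The difference of -0.45 ± 0.18 did not pass (adjusted p = 0.249), although both IAA arrays lay below both mock arrays, and its 95% interval ran from -0.83 to -0.06. For IAA in ein2, 1.31% of features were called lower. A smaller effect in ein2 was not established, since the difference between the effects was 0.73 ± 0.25 (95% interval 0.19 to 1.28, adjusted p = 0.989). With 1 array left out it ranged from 0.47, without Col IAA replicate 1, to 1.00, without Col IAA replicate 2. For that difference limma called 0 of 13836 features, and 622 had an unadjusted p under 0.05.

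AT4G11210 stood higher in ein2 than in Col with either spray. With mock spray ein2 stood above Col by 1.43 ± 0.18 (2.70-fold, adjusted p = 0.000315), in a comparison that called 5.35% of features higher. With IAA the difference was 2.17 ± 0.18 (4.49-fold, adjusted p = 1.61e-05), where 4.02% of features were called higher. The mean of ein2 roots with IAA (8.58) was above that of Col roots with mock spray (7.60). All of the tested results for AT4G11210 kept their call or lack of a call under every setting tried, including each array left out in turn.

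**Figure D2:**
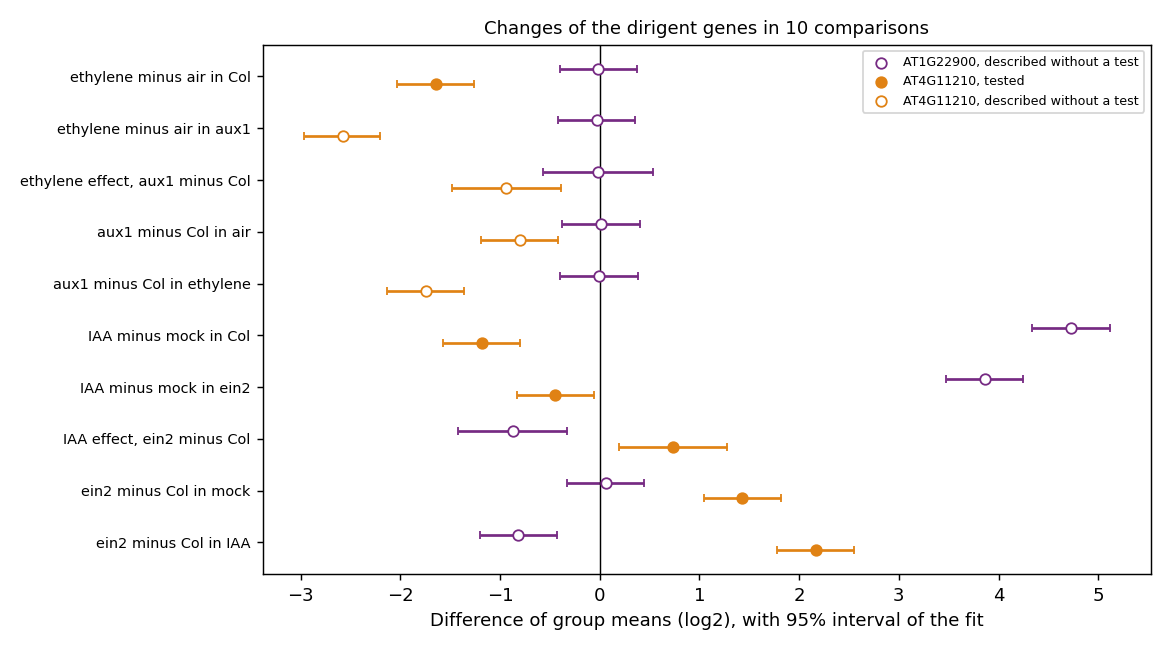
Difference of group means (log2, horizontal axis) of AT1G22900 and AT4G11210 in 10 comparisons, with the 95% interval of the fit. Filled points were tested, and open points are descriptions, from arrays used to choose the gene or with all values at background. Intervals of open points are not tests, whether or not they reach 0. For AT1G22900 the fit pools the small spread of the groups at background, so its intervals with IAA are too narrow. AT1G22900 departs from 0 by more than 1 only with IAA (3.86 in ein2 and 4.73 in Col), and AT4G11210 is below 0 for both hormones and above 0 for ein2 against Col.

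The order of the groups differed between the genes. For AT1G22900 it was Col with IAA (6.68), ein2 with IAA (5.87) and then 6 groups between 2.01 and 1.93, whose neighbours lay at most 0.05 apart. For AT4G11210 the order was ein2 with mock spray (9.03), ein2 with IAA (8.58), Col with air (8.32), Col with mock spray (7.60), aux1 with air (7.52), Col with ethylene (6.68), Col with IAA (6.41) and aux1 with ethylene (4.94). Arrays of Col with mock spray and aux1 with air overlapped in this order, as did those of Col with ethylene and Col with IAA. The untreated wild type itself stood at 8.32 in air and 7.60 with mock spray, and since the 2 experiments differ in handling, levels of one were not tested against the other.

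To see which genes followed the same pattern, the 8 group means of each gene with a locus code were correlated with those of the dirigent genes, as a description. The 5 genes most like AT1G22900 were AT3G46800, AT4G26540, AT5G47600, AT5G14650 and AT3G09760 (Pearson r of 0.9942 to 0.9998 over 8 group means). These correlations rest on the contrast of the IAA groups with all others, by which AT1G22900 was chosen. AT5G14650, a polygalacturonase gene, had means of 7.16 in ein2 with IAA and 2.44 in ein2 with mock spray, and of 7.19 in Col with IAA and 2.32 in Col with mock spray. AT3G46800 had 3.89 and 2.10 in ein2, and 4.32 and 2.09 in Col, in the same order. AT4G26540 (4.20 in ein2 and 4.30 in Col) and AT5G47600 (3.77 and 3.92) likewise stood near the filter of 4 with IAA. In the groups without IAA these 3 genes had means of 2.09 to 3.17, and AT5G14650 had means of 2.30 to 2.44. All of those means lie below the filter of 4, so these genes, like AT1G22900, owe their high r to the IAA groups. AT3G09760 had 6.95 and 5.35 in ein2, and 7.35 and 5.27 in Col, with IAA and mock spray. A high r does not measure the size of a change. For AT4G11210 the 5 nearest were AT5G07810, GSTU26 (AT1G17190), a glutathione transferase, TBL39 (AT2G42570), a trichome birefringence-like protein, AT3G46700 and AT5G62330 (r of 0.9615 to 0.9724). AT5G62330 had the widest range of these, with a mean of 5.23 in aux1 with ethylene and 8.06 in aux1 with air, and of 9.15 in ein2 with mock spray and 8.31 in Col with mock spray. All genes were measured on the same 16 arrays. The r values pool the means of both experiments, which differ in handling, without centring each one. The aux1 ethylene mean by which AT4G11210 was chosen also enters its r values.

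The wider family was described from a hand-written list of 25 dirigent loci. Named probe sets existed for 15 of them, and 9 passed the filter, among them AT1G22900 and AT4G11210. The other 6 named loci, AT1G65870, AT2G21110, AT3G13660, AT3G13662, AT3G58090 and AT4G38700, lay between 1.75 and 2.78 in all arrays, near background. The annotation used here gives no separate name or role to the 7 other loci that were tested. AT4G13580 (12.16 to 12.56) and AT2G39430 (10.68 to 11.40) varied least over the 16 arrays, and neither was called in any of the 10 comparisons. The ranges of the others were 10.58 to 11.99 for AT3G13650, 8.86 to 11.17 for AT1G55210, 8.79 to 12.09 for AT4G11190, 7.25 to 8.73 for AT2G21100 and 5.20 to 6.57 for AT1G58170.

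AT4G11190 is the next protein-coding gene to AT4G11210 on chromosome 4, on the side of AT4G11180. It was lower with ethylene in aux1, with values of 8.87 and 8.85 against 10.31 and 10.65 in air (-1.62 ± 0.23, adjusted p = 0.00109). In Col it was lower as well, with 8.85 and 8.79 in ethylene against 10.59 and 10.55 in air (-1.75 ± 0.23, adjusted p = 0.000545). In ein2 it was higher than in Col by 1.64 ± 0.23 with mock spray (adjusted p = 0.00074) and by 2.16 ± 0.23 with IAA (0.000121). These differences stood beside 1.43 and 2.17 for AT4G11210. The SD of AT4G11190 was 0.45 in ein2 with IAA and 0.44 in Col with IAA, and at most 0.24 in the other groups. Its pooled SE therefore understates the spread of the IAA arrays, and its adjusted p values with IAA rest on that SE. In air AT4G11190 had a mean of 10.48 in aux1 and 10.57 in Col (-0.09 ± 0.23, adjusted p = 0.964), where AT4G11210 had -0.80 ± 0.18. Whether the 2 genes differ in this respect was not tested. IAA changed AT4G11190 in Col by -0.78 ± 0.23 (adjusted p = 0.0651), which passed in 5 of the other settings (0.0209 to 0.0427). How far transcripts of neighbouring family members bind each other's probes was not tested.

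**Figure D3:**
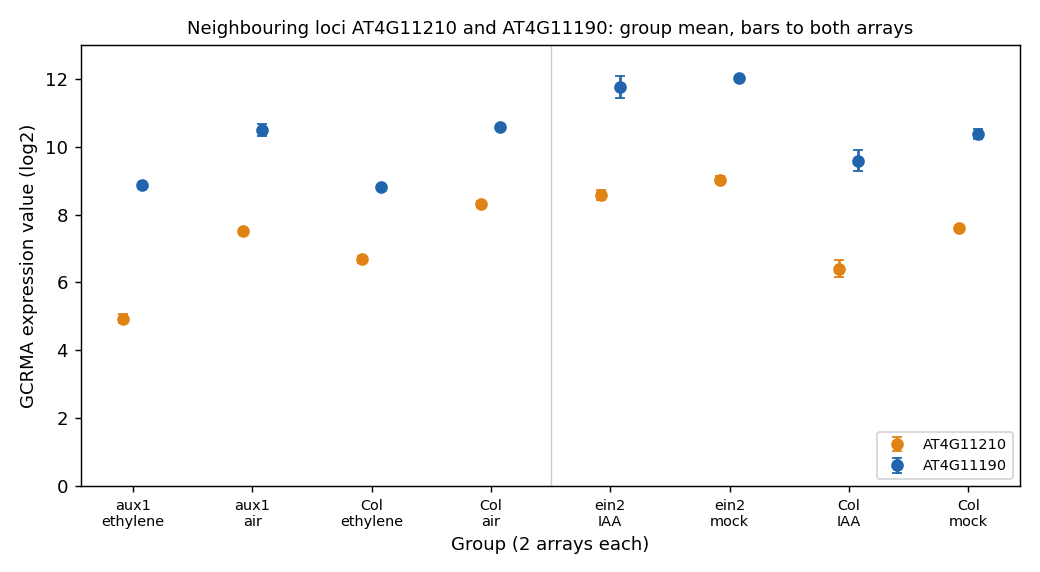
Group means (log2 GCRMA value, vertical axis) of AT4G11210 and AT4G11190 in the 8 groups, with bars to the 2 arrays of each group. Both genes are lower with ethylene than with air and higher in ein2 than in Col, and aux1 minus Col in air is -0.80 for AT4G11210 and -0.09 for AT4G11190. The heights of the 2 probe sets are not comparable with each other.

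Of the 7 other tested loci, 4 were called higher and 0 lower in ein2 than in Col with mock spray. They were AT4G11190, AT2G21100 (1.20 ± 0.16, adjusted p = 0.000518), AT1G55210 (1.09 ± 0.13, 0.00021) and AT3G13650 (0.72 ± 0.13, 0.00389). Of all features, 5.35% were called higher and 5.74% lower, and the median of the 7 was 0.72, against 0.03 over all features. With IAA 4 were again called higher and 0 lower (4.02% and 3.19% of all features). These were AT4G11190, AT2G21100 (1.21 ± 0.16), AT1G55210 (1.18 ± 0.13) and AT1G58170 (0.60 ± 0.13, adjusted p = 0.0186), with a median of 0.60 against -0.01 over all features. The call of AT1G58170 was lost in 4 settings, without either Col IAA array, without ein2 IAA replicate 2 and in the auxin experiment alone (0.0608 to 0.158). AT3G13650 was not called with IAA (0.43 ± 0.13, adjusted p = 0.07), but it was with a replicate block (0.0265) and with an intensity trend in eBayes (0.0363).

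Ethylene moved other family members in both directions. AT1G58170 rose by 1.30 ± 0.13 in aux1 (adjusted p = 0.000151) and by 0.90 ± 0.13 in Col (0.00143). Its values were 6.57 and 6.54 in aux1 with ethylene and 5.20 and 5.30 in aux1 with air, and 6.18 and 6.20 in Col with ethylene and 5.28 and 5.31 in Col with air. AT1G55210 fell by 0.76 ± 0.13 in Col (adjusted p = 0.00288) and stood at -0.41 ± 0.13 in aux1 (0.0772). In aux1, 1 of the 7 was called higher and 1 lower (3.34% and 3.76% of all features), and in Col 1 higher and 2 lower (4.05% and 4.76%). For IAA limma called 0 of the 7 in ein2 and 0 in Col, and 1 and 3 had an unadjusted p under 0.05, as had 14.6% and 20.4% of all features. AT2G21100 was called higher in aux1 than in Col in air (0.87 ± 0.16, adjusted p = 0.0301, beside 0.535% of all features). It lost that call in 7 settings (0.0523 to 0.227), among them without either Col air array, either Col ethylene array or aux1 air replicate 2.

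**Figure D4:**
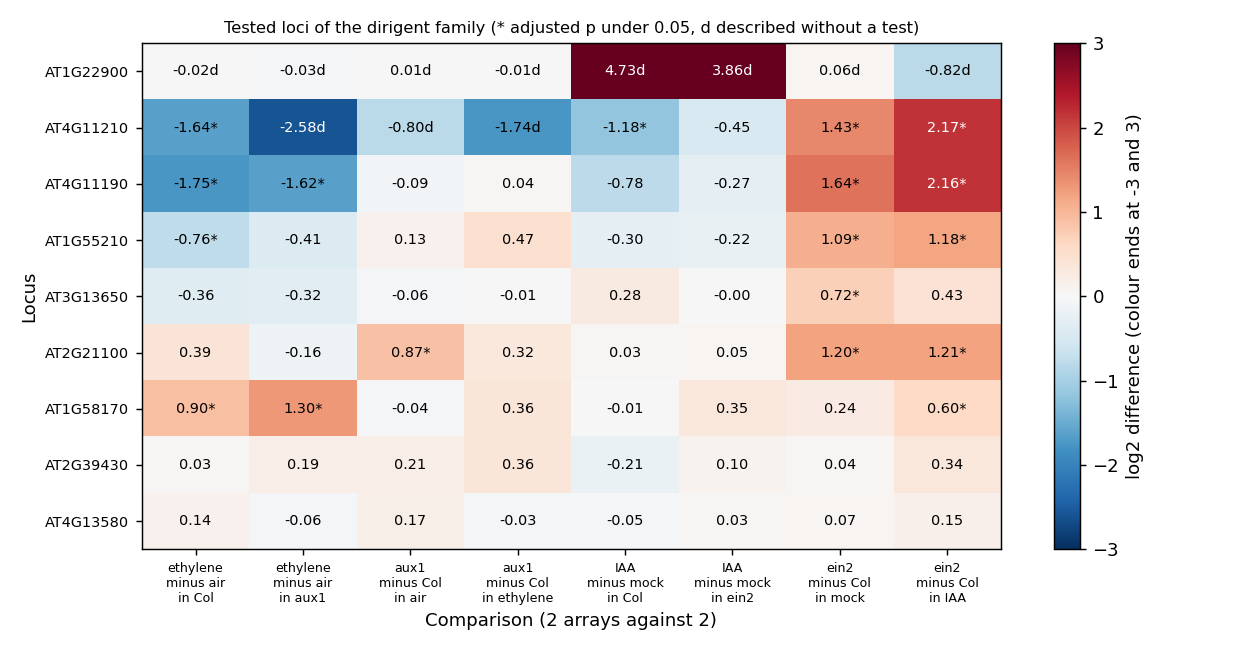
Heat map of log2 differences of the 9 tested loci of the dirigent family (rows) in 8 comparisons of 2 groups (columns). An asterisk marks an adjusted p under 0.05, and d marks values of AT1G22900 and AT4G11210 given without a test. The columns for ein2 against Col hold positive values for every locus except AT1G22900 with IAA (-0.82). Some are close to 0. With mock spray these are AT2G39430 (0.04) and AT4G13580 (0.07), not called, and AT1G22900 (0.06), at background.

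Genes that act beside dirigent proteins were read from 3 further lists. Of 28 genes listed under monolignol and lignan synthesis only 3 were named and tested. CCR2 (AT1G80820), a cinnamoyl-CoA reductase of the monolignol pathway, was called lower with ethylene in Col (-1.87 ± 0.49, adjusted p = 0.0361) and higher in ein2 than in Col with mock spray (2.13 ± 0.49, 0.0165). The first call was lost in 4 settings, among them the removal of Col air replicate 1 and that of Col ethylene replicate 2 (0.0932 to 0.227), and the second without either Col mock array or without ein2 mock replicate 2 (0.0564 to 0.127). CCR2 was also called higher in ein2 than in Col with IAA (2.08 ± 0.49, 0.0246). That call was lost with no filter or without any 1 of the 4 IAA arrays. In ethylene it was called higher in aux1 than in Col (2.25 ± 0.49, 0.0405), a call lost in 15 of the 24 settings (0.0542 to 0.209). CYP84A4 was called lower with IAA in Col (-0.99 ± 0.24, adjusted p = 0.0298), and lost that call with no filter and when any Col array of the auxin experiment was removed (0.0678 to 0.177). HCT, an acyltransferase of the monolignol pathway, was not called in any of the 10 comparisons. Whether CYP84A4 acts in that pathway was not tested. Of 18 Casparian strip genes 6 were tested, and limma called 0 of them for either hormone in either genotype. At an unadjusted p under 0.05 there were 0 for ethylene in aux1, 2 for ethylene in Col, 1 for IAA in ein2 and 2 for IAA in Col, against 19.2%, 20.6%, 14.6% and 20.4% of all features. Between ein2 and Col with mock spray 3 were called, AT1G61590 (-0.76 ± 0.11), AT4G34600 (-0.41 ± 0.10) and AT1G44970 (0.73 ± 0.15), which are named because their values were seen (5.35% of all features were called higher and 5.74% lower). The last 2 lost their call when Col mock replicate 1 or ein2 mock replicate 1 was removed, and AT4G34600 also when Col mock replicate 2 was removed (adjusted p of 0.059 to 0.161). With IAA 2 were called lower, AT1G61590 (-0.66 ± 0.11) and AT4G34600 (-0.61 ± 0.10), beside 3.19% of all features, and AT1G44970 was not called (0.50 ± 0.15, adjusted p = 0.0706). Of 17 laccases 1 was named, and it did not pass the filter.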

How the data were processed

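RNA of 16 root samples was hybridised to Affymetrix arrays. The deposited values are log2 expression values per probe set, made by the authors with GCRMA, per the submitters' processing notes; its version, its settings and the arrays normalized together are not given in the sources used here. That the scale is log2 follows from their range (1.240 to 15.398). They were used as deposited. Of 22810 probe sets, 64 controls, 503 with several genes and 77 without a locus code were left out. The platform annotation named 1 locus for 13436, and 8730 unlisted probe sets were kept unnamed. The brightest probe set of a locus was kept, and features above 4 in at least 2 arrays were tested (13836). Group means over all arrays were fitted with limma 3.58.1 (R 4.3.3), leaving 8 residual and 3.39 prior degrees of freedom, and tested two-sided, with Benjamini-Hochberg adjustment over all features. On data simulated for ethylene against air in Col (13836 features), 94% of changes of size 2 and 64% of size 1 were called. In addition, 12 unchanged features were called. The simulation changed fewer features than the 1219 called in the real comparison and took the noise of arrays as independent. These shares therefore need not hold for the real data.

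The 2 genes and all lists were chosen with earlier results of these data known. Of other lists, members called in a treatment comparison were named, up to 4 per list and comparison, and of the genes most like each dirigent gene the first 5. AT1G22900 was planned to be tested in the ethylene experiment, but all its values there were at background, and no test is given. Group values are means of 2 arrays. No sequence of these genes was used here.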

Additional observations from a re-analysis of the deposited data

How the results depend on the processing

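Over 20 results of AT1G22900 and AT4G11210 and 24 other settings, 468 of 480 values kept their direction and their call, or moved by less than the spread between arrays. The AT1G22900 values of the ethylene experiment among them lie at background and say nothing about stability. The settings were each array removed in turn, each experiment fitted alone, a replicate block, a filter at 6, no filter, probe sets with 1 locus only, quantile normalization, median centring, and eBayes with an intensity trend. A difference of group means could itself change only with an array of its own groups removed, quantile normalization or median centring. Elsewhere only a call could change, and results given without a test had none. Many of the 468 values were therefore fixed in advance and say nothing about stability. The 12 values outside the 468 all concern AT1G22900 with 1 IAA array left out. Its IAA effect then ranged from 3.56 to 4.16 in ein2 and from 4.51 to 4.96 in Col. The difference between the effects ranged from -1.17 to -0.58, and ein2 minus Col in IAA from -1.11 to -0.52. No scaling moved the median of all features by 0.1 or more. Without 1 array of a group, the lone array was taken to vary like the other groups.

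The replicate numbers are shared by groups, but the labels do not say that a number marks a shared day or batch. Deviations of same-numbered arrays correlated at 0.12 to 0.42. With the replicate block AT4G11210 kept its ethylene effect in Col (-1.64, adjusted p = 6.99e-05), and the difference between its IAA effects stayed uncalled (0.73, 0.428). The block raised all calls for IAA in Col to 1566 (959 without it) and for IAA in ein2 to 733 (449 without it). It also called AT3G13650 lower with ethylene in Col (0.0488) and AT1G55210 lower with ethylene in aux1 (0.0262), as did the intensity trend (0.0482), AT1G55210 higher in aux1 than in Col in ethylene (0.0308), AT3G13650 higher in ein2 than in Col with IAA (0.0265), and AT4G11190 lower with IAA in Col.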
